A study of Homo sapiens with 6 samples.

Results

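The 14-3-3 proteins are a family of 7 human genes, YWHAB, YWHAE, YWHAG, YWHAH, YWHAQ, YWHAZ and SFN, which encode the beta, epsilon, gamma, eta, theta, zeta and sigma isoforms. They were chosen by gene symbol from the 58735 genes of the deposited expression table. HGC-27 cells are a widely used line derived from an undifferentiated gastric carcinoma. Cells labelled WT received the control vector pSIH-H1-Puro-shNC (shNC, n = 3 libraries), and cells labelled as ACAT2 knockdown received pSIH-H1-Puro-shACAT2 (shACAT2, n = 3 libraries), in both cases for 24 h, followed by puromycin selection for 7 days. Both groups were therefore puromycin-selected stable populations rather than clones, the study's methods describe the control as the empty vector, and the labels do not say which hairpin against ACAT2 was used. Total RNA was extracted for sequencing. The values are FPKM, fragments per kilobase of gene over a scaling denominator of each library, which was not its plain total. Nothing states that the libraries came from separate cultures, so the p-values measure the spread between these libraries, which may be technical. In bulk RNA, fewer cells of a type and less RNA per cell cannot be told apart.

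14-3-3 proteins are dimeric adaptors that bind phosphorylated serine or threonine in their partners. A kinase writes the binding site, the dimer then holds the partner in the cytoplasm or away from its own partners, and a phosphatase releases it. YAP1 and TAZ phosphorylated by the Hippo kinases LATS1 and LATS2, the pro-apoptotic protein BAD, the FOXO transcription factors and the CDC25 phosphatases are among the textbook partners. The sigma isoform (SFN, stratifin) differs from the other 6 in being an epithelial gene that halts cells before mitosis after DNA damage, and its promoter is frequently methylated in carcinomas.

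Each library held 14086416 to 16067486 fragments assigned to genes, and values of single libraries are given in the order of their replicate numbers. ACAT2, the targeted gene, was 12.9 ± 1.25 FPKM (SD, n = 3) in shNC cells and 5.90 ± 0.388 FPKM (SD, n = 3) in shACAT2 cells, with a log2 fold change of −1.01 (SE 0.10, limma adjusted p = 0.0059). The adjusted p was 0.0512 without shNC-3. Some libraries stood apart. In shACAT2-3, 7477 genes were detected that no other library detected, whereas the corresponding number was 416 to 657 in each of the other 5 libraries. shNC-2 and shNC-3 differed by a chi-square of 1.73 per gene, while the remaining replicate pairs gave 12.1 to 46.0. The labelled tissue was stomach, but the gastric epithelial markers KRT18, KRT19, KRT7, TFF1 and MUC5AC lay under 0.1 FPKM in every library, and EPCAM reached at most 0.212 FPKM. Of 10 such markers MUC1 alone passed the filter and rose, with a log2 fold change of 0.55 (limma adjusted p = 0.0245, at most 0.132 with 1 library left out). Under the filter, CDH1 was 0.161 ± 0.0540 FPKM in shNC and 0.863 ± 0.275 FPKM in shACAT2 (SD, n = 3), without overlap. CLDN18 was 0.362 ± 0.0682 and 0.265 ± 0.0955 FPKM (SD, n = 3). CDH1 and CLDN18 were named after their values were seen. The summed level of the 10 markers was 2.95 to 3.44 FPKM in shNC and 5.03 to 6.06 FPKM in shACAT2. The summed level of 9 fibroblast markers was 311.1 to 346.5 FPKM in shNC and 448.6 to 543.2 FPKM in shACAT2. Of the 7 fibroblast markers tested, COL1A1, DCN and LUM rose, LUM not under library-size or upper-quartile scaling or limma-voom (limma adjusted p from 0.0501 to 0.0745). COL3A1, which held most of the sum, had a log2 fold change of 0.47 (limma adjusted p = 0.0916). PDGFRA was lower without overlap, with −0.43 (limma adjusted p = 0.0701), and FAP, under the filter, was 0.847 ± 0.201 FPKM in shNC and 0.387 ± 0.126 FPKM in shACAT2 (SD, n = 3); these 3 were named after their values were seen. Of 14 stratified epithelial markers 2 were tested and both rose, KRT4 with a log2 fold change of 1.95 (limma adjusted p = 0.0020) and PERP with 0.54 (limma adjusted p = 0.0456). Of these 5 genes, KRT4 was the only one called whichever library was left out, and the highest limma adjusted p of the others was 0.0983 for COL1A1, 0.140 for DCN, 0.155 for LUM and 0.197 for PERP. Of the leukocyte markers 1 of 7 was tested and was not called, and none of the 5 endothelial or 6 neural markers passed the filter. Over all genes tested, 3.3% were called higher and 1.81% lower. The part of these marker levels in the results on 14-3-3 genes was not tested.

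The closest relatives by coding sequence are YWHAG and YWHAH, whose longest open reading frames were 78.5% identical, followed by YWHAB and YWHAZ with 74.3%. Across all pairs of the 7 genes the lowest identity was 61.5%, between YWHAE and SFN. YWHAG and YWHAH lay on opposite sides of no change in the comparison below, but neither was called (limma adjusted p = 0.458 and 0.281). For these genes and for YWHAQ, the most abundant member, the DNA before the starts is shown here. The bases were taken from RefSeq (GRCh38.p14), which matched 6 of the 7 members; no entry was given for YWHAZ. Each run reads 5′ to 3′ on the gene's own strand and ends at the last base before the annotated gene. The capitals mark GC boxes (GGGCGG), ETS motifs (CGGAAG), boxes of the letters CCAAT, the cyclic AMP response element (TGACGTCA) and the motif TATAAA, each searched on both strands.
YWHAG, chr7:76359032-76359241, minus strand: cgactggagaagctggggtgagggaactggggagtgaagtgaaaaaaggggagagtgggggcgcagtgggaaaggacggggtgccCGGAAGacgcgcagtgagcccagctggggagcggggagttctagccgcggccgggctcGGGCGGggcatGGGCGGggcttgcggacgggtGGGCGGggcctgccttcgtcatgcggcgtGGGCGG
YWHAH, chr22:31944285-31944460, plus strand: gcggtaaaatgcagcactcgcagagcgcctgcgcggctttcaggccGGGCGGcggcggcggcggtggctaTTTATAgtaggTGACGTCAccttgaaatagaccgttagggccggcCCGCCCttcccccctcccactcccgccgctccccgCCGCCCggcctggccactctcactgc
YWHAQ, chr2:9631015-9631247, minus strand: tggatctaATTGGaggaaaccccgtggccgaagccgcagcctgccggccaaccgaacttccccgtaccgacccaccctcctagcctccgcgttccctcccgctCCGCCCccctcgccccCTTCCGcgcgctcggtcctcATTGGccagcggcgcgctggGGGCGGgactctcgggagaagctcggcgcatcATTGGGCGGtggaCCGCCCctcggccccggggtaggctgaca
In the 250 bases before the RefSeq start, all 3 promoters held GC boxes, 4 in YWHAG, 3 in YWHAH and 4 in YWHAQ, a motif found in 42.6% of 35116 promoters of that length. YWHAH held 1 cyclic AMP response element (1.65% of promoters) and 1 TATAAA motif (10.7%), which the other 5 matched members lacked. YWHAQ held 3 CCAAT boxes (32% of promoters), of which 1 overlaps a GC box. YWHAG and YWHAQ each held 1 ETS motif (16.5% of promoters) and YWHAH none. The AP-1 motif (TGANTCA, 6.57% of promoters) was found in SFN. The E box (CACGTG, 6.34%) and the MCAT motif (GGAATG, 11.9%) were found in none of the 6 matched members. The GC content of the 6 promoters was 62.8% to 72% against a median of 58% for all promoters. These matches describe letters in a window and no binding was measured.

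Among the members tested, 4 genes had higher means in shACAT2 cells (YWHAQ, YWHAH, YWHAZ and YWHAB, by 19.8% to 28.1%) and 2 had lower means (YWHAG and YWHAE, by 9.4% and 5.6%). None of these 6 differences passed the test, which was limma on log2(FPKM + 1) with Benjamini-Hochberg adjustment over 13832 genes. At that threshold of 0.05, 3.3% of all genes tested were called higher and 1.81% lower in shACAT2, and 0 of 6 members were called in either direction. At an unadjusted p under 0.05 there were 3 members (YWHAZ, YWHAB and YWHAQ), all 3 higher, against 12.8% of all genes tested higher and 10.7% lower at that p, and limma-voom on the recovered fragments also gave 3 members and called 0. The median log2 fold change was 0.26 over the 6 members and 0.016 over all genes tested. The 3 shACAT2 values lay above the 3 shNC values for YWHAQ, YWHAZ and YWHAB and below them for YWHAG, while the groups overlapped for YWHAH and YWHAE. The same separation was seen upwards for 16.2% and downwards for 14.5% of all genes tested. Without shACAT2-3 the log2 fold changes were 0.26 for YWHAQ, 0.28 for YWHAH, 0.32 for YWHAZ, 0.27 for YWHAB, −0.17 for YWHAG and −0.08 for YWHAE, with 0 called. The 7th member, SFN, lay under the filter of a mean of 1 FPKM in either group.

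**Figure D1:**
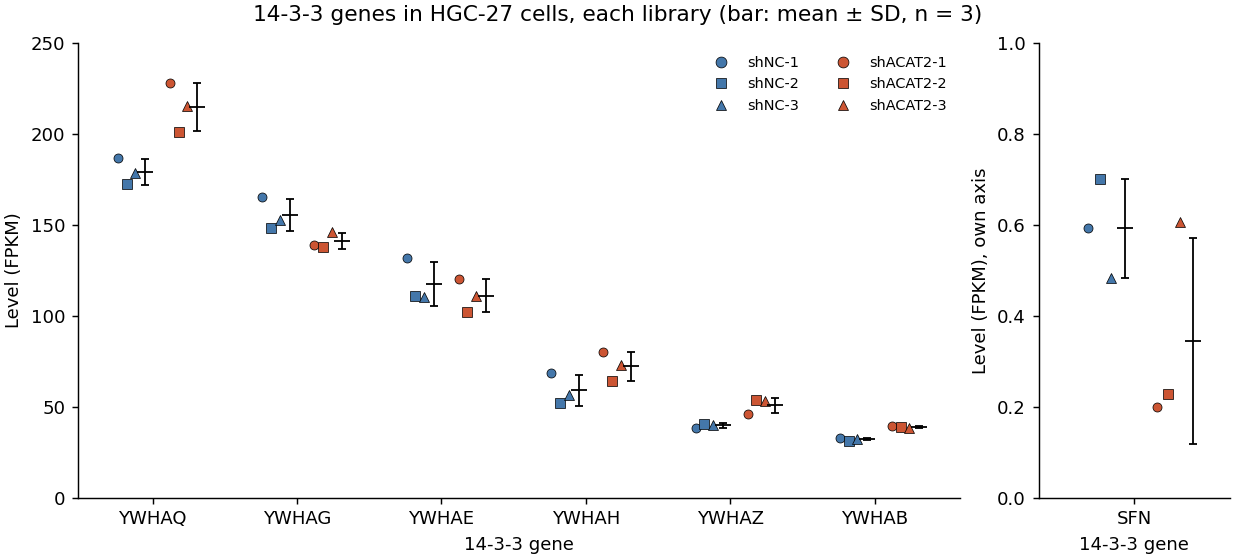
Level in FPKM of each 14-3-3 gene in each of the 6 libraries, with SFN on an axis of its own. Points are libraries, shaped by replicate number, and bars give the mean ± SD (n = 3). YWHAQ, YWHAZ and YWHAB lie higher in all 3 shACAT2 libraries and YWHAG lies lower, with SFN under 1 FPKM throughout.

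YWHAQ (ENSG00000134308, chromosome 2, 9583972 to 9631014, minus strand) encodes the theta isoform. It was 187, 173 and 179 FPKM in the shNC libraries and 228, 201 and 216 FPKM in the shACAT2 libraries. All 3 shACAT2 values were above the highest shNC value. The mean was 179 ± 7.07 FPKM (SD, n = 3) in shNC and 215 ± 13.3 FPKM (SD, n = 3) in shACAT2. The log2 fold change of 0.26 had an SE of 0.11, a 95% interval from 0.0097 to 0.51 and a limma adjusted p of 0.198.

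YWHAZ (ENSG00000164924, chromosome 8, 100916525 to 100953388, minus strand) encodes the zeta isoform. Its values were 38.3, 40.8 and 40.1 FPKM in the shNC libraries. In the shACAT2 libraries they were 46.1, 53.5 and 53.1 FPKM, again without overlap. YWHAZ had the largest log2 fold change of the 6 members, 0.35 (SE 0.11, 95% interval 0.097 to 0.60, limma adjusted p = 0.111). With the replicate number as a block, the limma adjusted p was 0.0444 and YWHAZ was the 1 member called. That fit called 7.67% of all genes tested higher and 4.81% lower, 1727 genes against 706 without the block. The block rests on correlations of 0.445, 0.126 and 0.171 between same-numbered libraries, but shNC-2 with shACAT2-3 (0.198) and shNC-3 with shACAT2-2 (0.141) deviated together as much, so the data do not tell numbers 2 and 3 apart. Of the 50-base stretches in its transcript with the longest coding sequence, 12.6% also occur in other genes (207 of them), so its count depends on how such fragments were assigned.

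YWHAB (ENSG00000166913, chromosome 20, 44885676 to 44908532, plus strand) encodes the beta isoform, the closest relative of zeta. It was 32.7, 31.5 and 32.4 FPKM in the shNC libraries and 39.2, 38.9 and 38.6 FPKM in the shACAT2 libraries. Its libraries were the tightest of the family, with a coefficient of variation of 1.96% in shNC and 0.83% in shACAT2, where counting of the fewest fragments alone gives 1.59%. The gap between the groups exceeded either spread, and the log2 fold change was 0.27 (SE 0.09, 95% interval 0.054 to 0.48, limma adjusted p = 0.137).

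YWHAH (ENSG00000128245, chromosome 22, 31944461 to 31957603, plus strand) encodes the eta isoform. It was 68.4, 52.1 and 56.6 FPKM in the shNC libraries and 80.0, 63.9 and 72.8 FPKM in the shACAT2 libraries. The groups overlapped because shNC-1 lay above shACAT2-2, although each shACAT2 library was above the shNC library of its number, by 0.22, 0.29 and 0.36 on the log2 scale of FPKM + 1. The log2 fold change was 0.29 (SE 0.14, 95% interval −0.05 to 0.63, limma adjusted p = 0.281). Its exons share 105 bases with Z82190.2 on the same strand and 22 bases with C22orf24 on the opposite strand.

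YWHAG (ENSG00000170027, chromosome 7, 76326794 to 76359031, minus strand) encodes the gamma isoform. It was 166, 149 and 153 FPKM in the shNC libraries and 139, 138 and 146 FPKM in the shACAT2 libraries. The highest shACAT2 value was just below the lowest shNC value. The mean was 156 ± 8.82 FPKM (SD, n = 3) in shNC and 141 ± 4.47 FPKM (SD, n = 3) in shACAT2, and the log2 fold change was −0.14 (SE 0.10, 95% interval −0.38 to 0.10, limma adjusted p = 0.458).

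YWHAE (ENSG00000108953, chromosome 17, 1344272 to 1400378, minus strand) encodes the epsilon isoform, which mostly pairs with other isoforms. It was 132, 111 and 111 FPKM in the shNC libraries and 120, 102 and 111 FPKM in the shACAT2 libraries, so the groups overlapped. The log2 fold change was −0.08 (SE 0.12, 95% interval −0.37 to 0.21, limma adjusted p = 0.742), and without shNC-1 it was 0.0018.

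**Figure D2:**
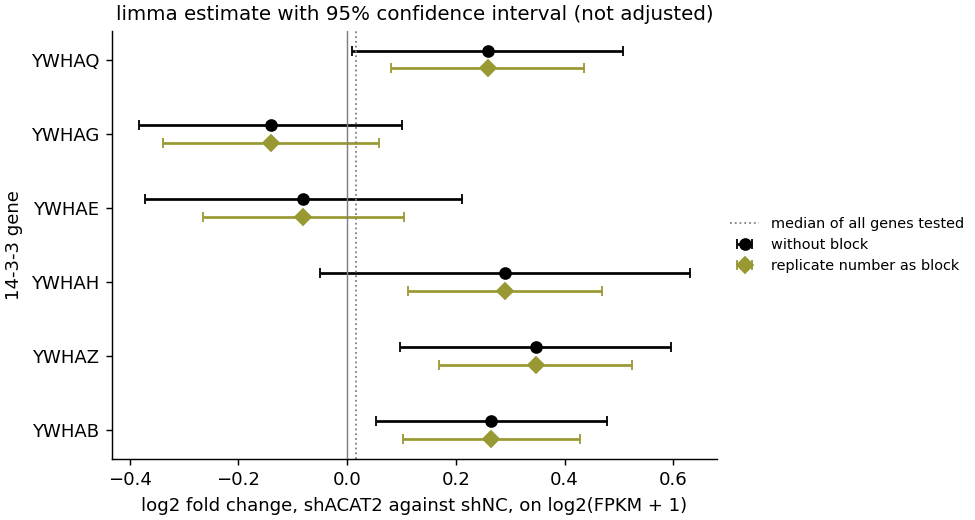
Limma log2 fold change of shACAT2 against shNC on log2(FPKM + 1) for the 6 members tested, without the replicate block (circles) and with it (diamonds). Bars are 95% confidence intervals, not adjusted for the number of genes; YWHAQ, YWHAH, YWHAZ and YWHAB lie to the right of 0 and YWHAG and YWHAE to the left.

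SFN (ENSG00000175793, chromosome 1, 26863138 to 26864457, plus strand), a gene of 1 exon, was almost absent. It held 12, 15 and 11 fragments in the shNC libraries and 4, 5 and 12 fragments in the shACAT2 libraries. This was 0.594, 0.701 and 0.483 FPKM against 0.200, 0.228 and 0.606 FPKM, so shACAT2-1 and shACAT2-2 were low while shACAT2-3 lay among the controls. The exact Poisson 95% interval, which covers counting error only, was 1.09 to 10.2 fragments in shACAT2-1 and 6.20 to 21.0 fragments in shACAT2-3. In shACAT2-3, the genes without a fragment in the other 5 libraries held 0.743 fragments per kilobase, which comes to 0.98 fragments over SFN. This rate is a mean over those genes, and their spread was not examined. The part of such fragments in the SFN count was not tested. The mean was 0.593 ± 0.109 FPKM (SD, n = 3) in shNC and 0.344 ± 0.227 FPKM (SD, n = 3) in shACAT2, or 0.214 FPKM without shACAT2-3. The difference was not significant (two-sided exact permutation test, p = 0.3, where 0.1 is the smallest p possible). Limma-voom without the filter on FPKM gave a log2 fold change of −0.97 (SE 0.48, adjusted p = 0.254).

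The order of levels over all annotated exons was YWHAQ, YWHAG, YWHAE, YWHAH, YWHAZ, YWHAB and SFN in both groups, and no neighbours overlapped between libraries of a group. YWHAQ exceeded YWHAG 1.15-fold in shNC and 1.52-fold in shACAT2. YWHAB exceeded SFN 54.3-fold in shNC. The order depends on gene length, because YWHAZ (8555 bases of exon from 23 transcripts) and YWHAB (7933 bases) are long models, whereas YWHAG has 1 transcript of 3750 bases. With the same fragments divided by the length of the transcript with the longest coding sequence, the order became YWHAQ, YWHAE, YWHAG, YWHAB, YWHAH, YWHAZ and SFN. On that scale YWHAQ and YWHAE overlapped in shNC (220 ± 8.66 against 205 ± 21.0 FPKM, SD, n = 3), YWHAB and YWHAH overlapped in both groups, and YWHAH and YWHAZ overlapped in shACAT2.

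The groups did not overlap in 4 of the 7 shares of the family but overlapped in its sum. In FPKM, 16.2% of all genes tested separated upwards and 14.5% downwards. No such percentage was taken for shares, and shares of 1 sum are not independent. The summed FPKM of the 7 genes was 584.3 ± 35.1 (SD, n = 3) in shNC and 629.4 ± 28.1 (SD, n = 3) in shACAT2, a difference of 7.73% with overlapping groups (two-sided exact permutation test, p = 0.2). The difference in the sum, 45.2 FPKM, was 24.4 with library-size scaling, 28.1 with upper-quartile scaling and 70.2 with transcript lengths. YWHAG made up 26.5%, 26.7% and 26.8% of the sum in the shNC libraries and 21.3%, 23.1% and 22.9% in the shACAT2 libraries. YWHAE made up 20.1% ± 0.894 (SD, n = 3) in shNC and 17.6% ± 0.703 (SD, n = 3) in shACAT2. YWHAG and YWHAE together made up 46.1% to 47.6% of the family in shNC libraries and 39.7% to 40.3% in shACAT2 libraries, a difference of −6.70 percentage points.

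The share of YWHAQ was 30.7% ± 0.691 (SD, n = 3) in shNC and 34.1% ± 0.703 (SD, n = 3) in shACAT2. The share of YWHAB was 5.52% ± 0.240 and 6.19% ± 0.274 (SD, n = 3 each), also without overlap. YWHAH (10.1% ± 0.820 and 11.5% ± 0.783) and YWHAZ (6.83% ± 0.618 and 8.11% ± 0.957) had higher mean shares in shACAT2 with overlapping groups. For YWHAG, YWHAE, YWHAQ and YWHAB the two-sided exact permutation test gave p = 0.1 each, the smallest that 3 against 3 libraries allow, so no share could pass 0.05. For YWHAH, YWHAZ and SFN the same exact test gave p = 0.2. Shares of 1 sum are tied to each other, and a share does not depend on the scaling between libraries. With transcript lengths, chosen after the data were seen, YWHAG was 19.3% of the sum in shNC and 16.1% in shACAT2, YWHAE 25.3% and 22.02%, YWHAQ 27.2% and 30.0%, and YWHAB 10.2% and 11.3%. The shift of YWHAB was 0.668 points with FPKM, 1.13 with transcript lengths and 1.25 as a share of recovered fragments. As shares of recovered fragments, which weight long genes more, YWHAZ shifted by 2.67 points instead of 1.29, YWHAQ by 2.18 instead of 3.41 and YWHAH by 0.811 instead of 1.38.

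Ratios between members within a library compare the isoforms without any scaling between libraries. Of the 15 pairs of the 6 abundant members, 8 join a member with a higher mean and one with a lower mean, and 7 join members on the same side. All 8 mixed pairs had ratios that did not overlap between the groups, shifted by 21.2% to 33.3%, whereas 0 of the 7 other pairs did, with shifts of 1.01% to 5.87%. The pairs were divided by the direction of these same values, so the counts are a description. The 15 pairs come from only 6 genes, and pairs of other genes were not examined. Of single genes tested, 16.2% separated upwards and 14.5% downwards in FPKM. YWHAG to YWHAH, the pair closest in coding sequence, was 2.42, 2.85 and 2.70 in the shNC libraries and 1.74, 2.16 and 2.01 in the shACAT2 libraries. YWHAB to YWHAQ was 0.180 ± 0.0039 in shNC and 0.181 ± 0.0108 in shACAT2 (SD, n = 3), the smallest shift. YWHAB to YWHAG had the largest shift, from 0.207 ± 0.0083 to 0.276 ± 0.0105 (SD, n = 3).

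Pseudogenes of the family could take up fragments from their parents. There were 20 in the table, 7 of them at 0 in all libraries. Between 4 and 7 had a fragment in each of 5 libraries, against 11 in shACAT2-3, and none exceeded 5.12% of its parent's FPKM. The 2 that passed the filter were YWHAZP3, with a log2 fold change of −0.32 (limma adjusted p = 0.412), and YWHAEP1, with 0.026 (limma adjusted p = 0.919). YWHAZP3 shared more 50-base stretches with YWHAZ than any other gene did, 5.29% of them. For YWHAE, YWHAH and YWHAQ the stretches shared with other genes came to 5.55%, 3.21% and 2.12%, and for YWHAB, YWHAG and SFN to 0.

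The genes of 14-3-3 partners were next examined. Of 64 genes that encode textbook partners 57 were tested, 1 rose and 2 fell, and the median log2 fold change was 0.048. Over all genes tested, 3.3% were called higher and 1.81% lower, and the median was 0.016. ZFP36L2, an mRNA decay factor that 14-3-3 binding restrains, was 33.1 ± 0.353 FPKM in shNC and 45.0 ± 1.07 FPKM in shACAT2 (SD, n = 3), with a log2 fold change of 0.43 (limma adjusted p = 0.0438). RPTOR, the substrate-recruiting subunit of mTORC1, was 9.47 ± 0.478 and 6.74 ± 0.269 FPKM, a log2 fold change of −0.44 (limma adjusted p = 0.0376). PTPN3, a membrane-associated tyrosine phosphatase, had a log2 fold change of −0.54 (limma adjusted p = 0.0443). None of these 3 was called when any of the shNC libraries or shACAT2-2 was left out, with limma adjusted p from 0.109 to 0.220, and without shACAT2-3 only PTPN3 of the 3 was called.

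The best known partners were not called. YAP1, the Hippo effector held in the cytoplasm by 14-3-3 proteins, was 22.9 ± 1.05 FPKM in shNC and 22.1 ± 2.26 FPKM in shACAT2 (SD, n = 3), with a log2 fold change of −0.05 (limma adjusted p = 0.823). WWTR1, which encodes TAZ, had 0.011 (limma adjusted p = 0.958). BAD was 10.7 and 8.10 FPKM in shACAT2-1 and shACAT2-2 but 3.43 FPKM in shACAT2-3, against 8.19, 6.93 and 6.55 FPKM in shNC. Its log2 fold change was −0.07 with all libraries and 0.33 without shACAT2-3 (limma adjusted p = 0.916 and 0.220). FOXO3 had −0.26 (limma adjusted p = 0.252), CDC25C 0.23 (limma adjusted p = 0.383) and CDKN1B 0.28 (limma adjusted p = 0.274). Without shACAT2-1 they were −0.14, 0.12 and 0.15. Their relatives FOXO1 and CDC25A, named after their values were seen, lay on the other side, with 0.37 (limma adjusted p = 0.0772) and −0.22 (limma adjusted p = 0.281). CDC25B, a phosphatase that drives entry into mitosis, was 31.6 ± 2.29 and 42.8 ± 6.88 FPKM without overlap, a log2 fold change of 0.42 (limma adjusted p = 0.132, or 0.0448 with the replicate block). The block called 5 partner genes higher, MAP3K5, RND3, ZFP36L2, MAP3K2 and CDC25B, of which MAP3K5, RND3 and MAP3K2 are named after their values were seen. With the block, 7.67% of all genes tested were called higher.

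A list of 40 kinases held writers of 14-3-3 binding sites and some kinases upstream of them. Of these 40, 34 were tested, 3 rose and 0 fell, with a median log2 fold change of 0.006. Over all genes tested, 3.3% were called higher and 1.81% lower, and the median was 0.016. PIM1, a survival kinase that phosphorylates BAD, was 5.42, 4.77 and 4.66 FPKM in the shNC libraries and 11.95, 10.99 and 9.72 FPKM in the shACAT2 libraries. Its log2 fold change was 1.00 (SE 0.11, limma adjusted p = 0.0066). LATS2, a Hippo kinase of YAP1 and TAZ, was 4.16 ± 0.328 FPKM in shNC and 7.76 ± 0.703 FPKM in shACAT2 (SD, n = 3), with a log2 fold change of 0.76 (limma adjusted p = 0.0119). SGK1, which writes 14-3-3 sites on FOXO3, was 1.17 ± 0.0651 and 2.69 ± 0.246 FPKM, a log2 fold change of 0.76 (limma adjusted p = 0.0139). LATS1, the paralogue of LATS2, had 0.024 (limma adjusted p = 0.952). PIM1 lost the call without shNC-3 (adjusted p = 0.0560), and LATS2 and SGK1 when any of the shNC libraries or shACAT2-2 was left out (adjusted p from 0.0538 to 0.0874).

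A selected list held 13 subunits of the phosphatases PP1 and PP2A, which remove the phosphate. All 13 were tested, 1 rose and 0 fell, with a median log2 fold change of 0.17. Over all genes tested, 3.3% were called higher and 1.81% lower, and the median was 0.016. PPP2CB, a catalytic subunit of PP2A, rose from 14.8 ± 0.965 to 21.7 ± 1.84 FPKM (SD, n = 3), a log2 fold change of 0.52 (limma adjusted p = 0.0414). It lost the call when any 1 of the 6 libraries was left out (adjusted p from 0.0549 to 0.202), and also with upper-quartile scaling (0.0559), with no filter (0.1003) and after averaging shNC-2 with shNC-3 (0.176).

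Among 13 genes that control SFN 12 were tested, 0 rose and 1 fell, with a median log2 fold change of −0.25. Over all genes tested, 3.3% were called higher and 1.81% lower, and the median was 0.016. TRIM25, a ubiquitin ligase of the sigma protein, was 16.2, 14.2 and 14.3 FPKM in the shNC libraries and 8.89, 8.75 and 8.93 FPKM in the shACAT2 libraries. Its log2 fold change was −0.69 (SE 0.09, limma adjusted p = 0.0127). TP73, a transcription factor, had −0.47 (limma adjusted p = 0.103), and TP63 lay under the filter. Both limma-voom fits called 4 of these genes lower, TRIM25, TP73 and the DNA methyltransferases DNMT3B and DNMT1, the last 2 named after their values were seen. Library-size scaling called 2 lower, and averaging shNC-2 with shNC-3 called 0 (TRIM25 adjusted p = 0.0757). Over all genes tested, the limma-voom fits called 580 of 13832 and 624 of 16299 lower, and library-size scaling 387 of 14013. TRIM25 lost the call when any of the shNC libraries or shACAT2-2 was left out (adjusted p from 0.0562 to 0.0839).

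CDKN1A, which encodes the cyclin-dependent kinase inhibitor p21, was 4.20, 3.60 and 3.40 FPKM in the shNC libraries and 9.37, 7.12 and 5.97 FPKM in the shACAT2 libraries, and rose with a log2 fold change of 0.83 (SE 0.16, limma adjusted p = 0.0343). The call was lost when any of the shNC libraries or shACAT2-2 was left out (adjusted p from 0.0937 to 0.153), with no filter (0.117) and after averaging shNC-2 with shNC-3 (0.149).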

How the data were processed

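Sample labels gave the groups and replicate numbers. The authors deposited FPKM values of 58735 genes. Their processing notes name HISAT2 2.0.5, featureCounts 1.5.0-p3 and hg38; the strand setting is not given in the sources used here. For 58724 genes the length matched the exon total in GENCODE release 29. FPKM multiplied by length gave whole fragments (100% of values, tolerance 0.05). The denominator of FPKM was 95.7% to 107% of the fragments on genes. It was 1.01 to 1.04 times the denominator given by median-of-ratios factors, which scale each library by its median ratio to the gene means.

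Genes whose shNC or shACAT2 mean reached 1 FPKM (13832) were tested with limma (version 3.58.1, trend, R 4.3.3) on log2(FPKM + 1), which understates changes of low genes. Simulated data gave every gene the same spread beyond counting error and set no library apart, so they only approximate these libraries. In them the fit recovered 15.6% of genes given a log2 change of 0.5 and 79.4% at 1. It also called 15 unchanged genes. For changes as small as those of the members, an absent call therefore does not show an absent change. Shares used two-sided exact permutation tests (scipy 1.17.1). Coding sequences were aligned with Biopython 1.88.

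Members and lists (partners, kinases, phosphatases, SFN regulators, markers) were chosen with earlier results of these data known. The text names all members, a set of genes whatever their values, up to 5 called genes per list and direction, and the most abundant pseudogenes; some of them, and 1 list, are not reported here.

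The main fit treated the libraries as unpaired. Same-numbered libraries deviated from their group means together (correlations 0.445, 0.126 and 0.171), so the replicate number was used as a block in an alternative fit. However, shNC-2 with shACAT2-3 (0.198) and shNC-3 with shACAT2-2 (0.141) did so too. Alternatives were library-size and upper-quartile scaling, other filters, a pseudocount of 0.1, the block, limma-voom, averaging shNC-2 with shNC-3 and leaving out each library.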

Additional observations from a re-analysis of the deposited data

How the results depend on the processing

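All 6 members tested kept the direction of their difference under all 15 alternatives, except YWHAE, which ran from −0.14 to 0.0018 with 1 library left out. The replicate block called YWHAZ (0.35, limma adjusted p = 0.0444) and so 1 member, and no other alternative called any member. Over all genes, 456 were called higher and 250 lower (64.6% higher). The block gave 1061 and 666, no filter 149 and 60, and averaging shNC-2 with shNC-3 63 and 20. The lower count was 387 with library-size scaling (55.3% higher), 428 where every library had to hold 10 fragments, and 580 and 624 with limma-voom on the same genes (50.3% higher) and on genes with 10 fragments in 3 libraries. Upper-quartile scaling gave 57.0% higher. With 1 library left out, 49 to 523 genes were called higher and 14 to 339 lower, fewest without shNC-3.

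The partner genes called higher (1) became 0 with upper-quartile scaling, no filter and the average, and 5 with the block. Those called lower (2) became 0 with no filter and the average, and 4 and 5 with both limma-voom fits. With 1 library left out they were 0 to 4 and 0 to 3. The kinases called higher (3) became 0 with the average and 0 to 4 with 1 library left out. One kinase (1), PRKAA2, named after its values were seen, was called lower under the minimum of 10 fragments, with limma and with limma-voom. Under library-size scaling, upper-quartile scaling and both limma-voom fits, genes near 0 turned: WWTR1 to −0.032, −0.025, −0.041 and −0.040 and LATS1 to −0.017, −0.010, −0.030 and −0.029. With 1 library left out, the log2 fold change was −0.37 to 0.33 for BAD, −0.096 to 0.21 for LATS1, −0.046 to 0.050 for WWTR1 and −0.10 to 0.032 for YAP1. The cause was not tested. Of the named genes, the block added calls of YWHAZ, CDC25B, MAP3K5, RND3 and MAP3K2. SFN held at most 15 fragments in a library.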
